A study of Homo sapiens with 12 samples.

Results

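Described here are 142 of 60675 gene rows in HSC-3 cells, chosen because their mean was at least 1.5 times as high with cyclopiazonic acid (CPA) as untreated and at most 0.67 of that level when the ORAI inhibitor synta-66 was given with CPA. HSC-3 is a cell line from a human squamous carcinoma of the mouth, grown here in DMEM with serum. Its RNA was sequenced in 3 groups of 4 libraries: cells given 25 µM CPA with synta-66 for 3 hours, cells given 25 µM CPA alone for 3 hours, and untreated cells. The sources used here give no dose of synta-66, and a group with synta-66 alone was not analysed here. The labels name neither a vehicle for the untreated cells nor separate cultures for the 4 libraries of a group, so each p-value reflects how far these samples varied, and part of that may be technical.

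The rows were chosen by their group means in CPM (reads of a row scaled to the reads assigned to genes, on TMM-scaled library sizes). A row had to reach a mean of 10 CPM over the 12 libraries, a ratio of CPA to untreated of at least 1.5, and a ratio of CPA with synta-66 to CPA of at most 0.67. Of 4533 rows that reached 10 CPM, these 142 met the limits, and 7 others that met them were set aside because the rule names 9 rows to leave out (CEP72, MESD, ENSG00000232220, ENSG00000260892, ENSG00000247925, NR4A1AS, IER3-AS1, VIM-AS1 and INTS8). The higher level with CPA and the lower level with synta-66 are therefore what selected the rows, and both are given as values with no test.

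The endoplasmic reticulum is filled with calcium by the SERCA pump, which CPA inhibits. When the store empties, STIM proteins in its membrane open ORAI channels in the plasma membrane, and the calcium that enters acts through calmodulin on calcineurin and on kinases, which control transcription factors such as NFAT and CREB. Synta-66 blocks the entry step and leaves the store empty. In squamous carcinoma cells calcium signals are known to act on proliferation, migration and secretion.

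Reads were counted by strand per the study's design text, and the sources used here name no library kit. Each row is given with the coding gene opposite it, because a row's own transcript and that of the gene on the other strand could not be separated. Of the 142 rows, 97 (68.31%) shared 30 bases or more with exons of an oppositely oriented coding gene in GENCODE 44, beside 69.73% of the 4533 rows. A further 5 lay opposite the body of a coding gene with no exon overlap, 18 had their nearest coding gene on the other strand within 10000 bases, 17 had none within that distance and 5 had an identifier that GENCODE 44 does not annotate. By their own annotation 80 were coding genes, 57 (40.14%) were noncoding RNAs, pseudogenes or other such types, beside 41.19% of the 4533 rows, and 5 were not annotated. In all, 103 coding genes lay opposite the 97 rows, 87 rows having 1 such gene and 10 having more.

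Sequencing gave between 2819486 and 5458858 gene reads per library, and 3.585% to 9.399% of uniquely aligned reads were assigned to genes. The libraries CPA with synta-66 replicates 1 and 4 and untreated replicate 3 stood apart, with the most non-unique alignments, 53.5%, 49.4% and 39.6% of gene reads at mitochondrial ribosomal RNA and TMM factors of 0.452, 0.512 and 0.724, and 115 of the 142 rows also met the limits without them. All 14 keratinocyte and squamous markers were detected in their own rows, with a sum between 8015 and 8653 CPM with CPA and synta-66, 7107 and 8298 CPM with CPA and 7051 and 7631 CPM untreated. Nearly all of that sum was the row of the keratin KRT8, with means of 8299, 7669 and 7261 CPM in the same order. The sum therefore does not describe the other markers. The KRT8 row also lies opposite KRT18, whose own row averaged 46.4, 34.6 and 38.5 CPM, and transcripts of both genes could not be separated there. The median log2 fold change of the 14 for synta-66 against CPA was −0.42, beside −0.04 over all rows. None of the 14 was called by edgeR or DESeq2 in any comparison, with 5 (4 of them lower), 1 and 2 at an unadjusted p under 0.05 for synta-66 against CPA, CPA against untreated and synta-66 against untreated. Marker sums of fibroblasts, immune cells and endothelial cells did not pass 2.432 CPM in a library, and 4 of 7, 2 of 5 and 1 of 4 of these markers were at 0. Some squamous markers were as low in their own rows. TP63 averaged 0.627, 0.878 and 0.365 CPM and CDH1 0.968, 2.286 and 0.982 CPM, in the order used above. No opposite row of the markers of other cells was tested. Their low sums therefore do not show that such cells were absent. Because a bulk sample was sequenced, fewer cells with an RNA and less of it per cell cannot be told apart.

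Summed over the 142 rows, the libraries held 17840 to 19380 CPM with CPA and synta-66, 32400 to 38740 CPM with CPA and 17790 to 20390 CPM untreated. A large part of each sum was 1 row, ENSG00000279576. Without it the sums were 10280 to 10940, 21040 to 22990 and 11000 to 11990 CPM in the same order. The ratio of CPA to untreated ran from 1.501 to 4.22 (median 1.808), and that of CPA with synta-66 to CPA from 0.1508 to 0.6698 (median 0.5316). Mean CPM ran from 10.15 to 9473 with a median of 24.94. In 100 rows all 4 CPA libraries lay above the 8 others, as they did in 241 (5.32%) of the 4533 rows. In the plot of group ratios the rows form the lower right corner of one continuous cloud. By edgeR's quasi-likelihood test, 107 rows were called higher with CPA than untreated (1.8% of 14911 rows tested), while 112 were called lower in the synta-66 libraries than in the CPA ones (2.82%), 97 of them in both and 20 in neither. Nothing is read from these counts, since the same values chose the rows.

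**Figure D1:**
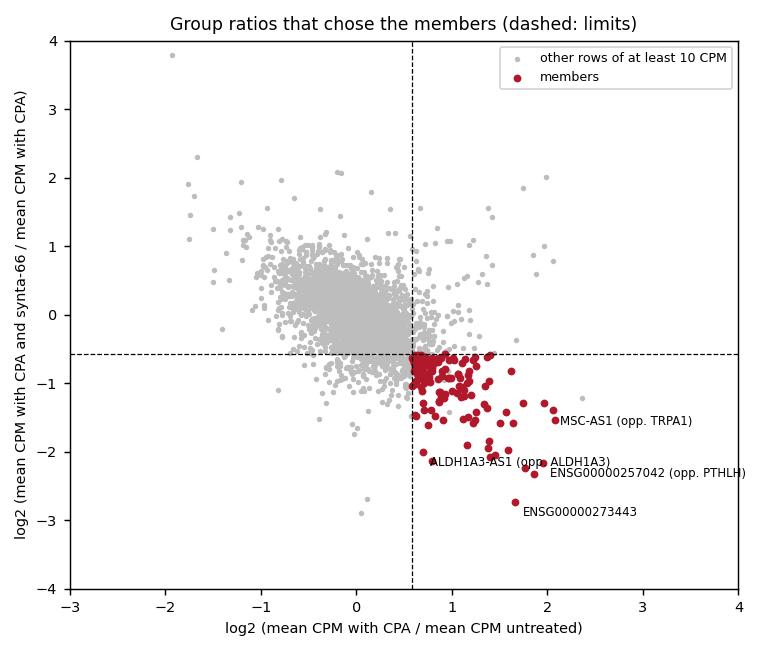
Each point is 1 gene row with a mean of at least 10 CPM, plotted by the log2 ratio of group means of CPA to untreated (x axis) and of CPA with synta-66 to CPA (y axis), with the 142 rows in red and the limits dashed. The rows fill the corner beyond both limits, down to a ratio of 0.1508 for ENSG00000273443, and 8 other rows lie outside the axes.

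Nearest to the limit of 1.5 were STAT6 (1.501), SAV1 (1.502) and NID2 (1.504) inside it and ENSG00000279172 (1.494), FANCC (1.492) and NGFR-AS1 (1.487) outside it. At 0.67 these were ABI2 (0.6698), COX15 (0.6672) and NOTCH4 (0.666) inside and CC2D1B (0.6713), SEPTIN1 (0.6726) and NELFCD (0.6729) outside. At 10 CPM they were ENSG00000276015 (10.15), MARVELD3 (10.21) and ENSG00000217801 (10.3) inside and PAQR8 (9.571) and CNOT7 (9.54) outside. With each library left out in turn, 78 rows met the limits in all 12 sets and the other 64 in 11 or fewer, down to 5 of 12 for ENSG00000276015 and ABI2.

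Secreted factors and surface receptors lay opposite 11 rows, with ratios of CPA to untreated between 1.506 and 3.877 and of CPA with synta-66 to CPA between 0.2227 and 0.6482. The row with the largest difference in both directions of all 142 was ENSG00000257042 (the smaller of its log2 ratios was 1.955), a noncoding RNA (chromosome 12, 27958517 to 27969813, plus strand, GRCh38) that overlaps exons of PTHLH by 353 bases. PTHLH encodes parathyroid hormone-related protein, a secreted factor known for raising blood calcium in patients with squamous carcinomas. ENSG00000257042 had 312, 334, 340 and 338 CPM in the synta-66 libraries, 1382, 1442, 1612 and 1510 CPM in the CPA libraries and 359.9, 382, 407 and 385 CPM in the untreated ones. The CPA libraries stood apart from both other groups with no overlap, and the synta-66 libraries all lay below the untreated ones. The own row of PTHLH (chromosome 12, 27958084 to 27972733, minus strand) met the limits too. PTHLH had 12.98, 12.2, 11.3 and 10.9 CPM with CPA and synta-66, 21.4, 16.97, 19.9 and 28.3 CPM with CPA and 11.4, 14.4, 14.1 and 15.2 CPM untreated. Here the CPA libraries were again the highest, and the other groups overlapped. It was the only coding gene opposite a row that was itself among the 142.

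RGMB, a co-receptor of bone morphogenetic proteins, lay opposite ENSG00000279232 (chromosome 5, 98792861 to 98795766, overlap 2682 bases). ENSG00000279232 had 628, 686, 631 and 632 CPM in the synta-66 libraries, 926, 1074, 1032 and 967 CPM in the CPA libraries and 540, 573, 579 and 512 CPM in the untreated ones. All 3 groups were separate there, CPA highest and untreated lowest. The row of RGMB-AS1, which lies opposite the same gene and is not among the 142, averaged 92.8 CPM with CPA and synta-66, 144.5 CPM with CPA and 98.9 CPM untreated. Its lower level with synta-66 passed edgeR's test (log2 fold change −0.65 ± 0.11 SE, adjusted p = 7.4e-05), but with CPA with synta-66 replicate 3 left out it was smaller than 1.5-fold (−0.575). Against untreated, CPA gave 0.55 ± 0.11 (adjusted p = 0.000918), under that minimum, and passed it without untreated replicate 3 (0.611), without CPA replicate 4 (0.593) and without the 3 libraries that stood apart (0.615). Other opposite genes also had further opposite rows outside the 142, and these did not all follow the same pattern. MRNIP, opposite SQSTM1, averaged 4913 CPM with CPA and synta-66, 5272 CPM with CPA and 4091 CPM untreated. ENSG00000274292, opposite RHOF, averaged 55.6, 54.5 and 59.3 CPM in the same order. NUTF2, opposite CENPT, averaged 2.414, 8.015 and 2.669 CPM. CD44, the hyaluronan receptor, lay opposite CD44-AS1 by 84 bases. CD44-AS1 had 832, 860, 873 and 858 CPM with CPA and synta-66, 1225, 1511, 1277 and 1269 CPM with CPA and 845, 868, 998 and 796 CPM untreated. The CPA libraries lay above the rest, replicate 2 highest, and the other groups overlapped.

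LRP1, an endocytic receptor, lay opposite LRP1-AS (overlap 112 bases). LRP1-AS had 6.08, 6.31, 4.42 and 1.74 CPM in the synta-66 libraries, 20.6, 18.4, 20.3 and 19.2 CPM in the CPA libraries and 5.41, 6.80, 9.69 and 7.91 CPM in the untreated ones. CPA libraries were tightly grouped and well above both other groups, which overlapped. The other 7 rows of this group averaged at most 59.0 CPM with CPA. They were ENSG00000225216 (opposite NRP2, a receptor of semaphorins and VEGF), MELTF-AS1 (MELTF, melanotransferrin), ESPN (TNFRSF25, a death receptor), INHBA-AS1 (INHBA, a subunit of activin A), ENSG00000267379 (ADGRE5, the adhesion receptor CD97), FCMR (IL24, a cytokine) and L1CAM-AS1 (L1CAM, a neural adhesion molecule). FCMR averaged 10.7 ± 3.10 CPM with CPA and synta-66, 21.6 ± 3.27 CPM with CPA and 14.1 ± 3.67 CPM untreated (SD, n = 4 each).

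Genes of the cytoskeleton, matrix and cell junctions lay opposite 16 rows, whose ratios of CPA to untreated ran from 1.539 to 3.073. RHOF, a small GTPase that drives filopodia, lay opposite TMEM120B by 2542 bases. TMEM120B had 225, 238, 211 and 206 CPM with CPA and synta-66, 537, 531, 620.1 and 590.5 CPM with CPA and 249, 223, 220.3 and 188 CPM untreated. The synta-66 and untreated libraries covered the same range and all CPA libraries lay above both. VIM, the intermediate filament vimentin, lay opposite ENSG00000234961 (chromosome 10, 17233325 to 17234833, overlap 619 bases), a different row from the VIM-AS1 set aside above. ENSG00000234961 had 2747, 2903, 2806 and 2765 CPM in the synta-66 libraries, 4817, 5253, 5622 and 5597 CPM in the CPA libraries and 2661, 2923, 2717 and 2663 CPM in the untreated ones. Again both other groups overlapped and CPA stood apart. AHNAK2, a large scaffold protein, lay opposite PLD4. PLD4 had 272, 299, 253 and 291 CPM with CPA and synta-66, 579.9, 767, 565 and 591 CPM with CPA and 372, 317, 370.1 and 256 CPM untreated. CPA replicate 2 was the highest there, and the CPA libraries did not overlap with the rest.

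HSPG2 (perlecan of basement membranes) lay opposite LDLRAD2. LDLRAD2 had 45.03, 48.4, 47.9 and 53.95 CPM in the synta-66 libraries, 107, 145, 70.4 and 127 CPM in the CPA libraries and 49.1, 60.6, 56.9 and 43.6 CPM in the untreated ones. CPA replicate 3 lay nearest the other groups, which overlapped. Other rows were TUBA1C (opposite TUBA1A, a tubulin), NDUFB9 (MTSS1, a membrane-bending actin regulator, and TATDN1), ALDH6A1 (BBOF1, of cilia), URAHP (GAS8, of the ciliary axoneme), ZC3H14 (EML5, microtubule binding), ENSG00000258660 (DNAL1, a dynein light chain), CBR4 (PALLD, palladin of actin bundles), ABI2 (RAPH1, lamellipodin), RBBP4 (SYNC), SRFBP1 (LOX) and AP3M1 (VCL), the last 3 given with their values below. TUBA1C and TUBA1A are close paralogs, and how reads divide between them is uncertain.

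Regulators of transcription and RNA lay opposite 23 rows, with ratios of CPA to untreated between 1.501 and 4.171. MSC-AS1 (chromosome 8, 71828167 to 72118393) overlaps exons of TRPA1, a cation channel of irritant sensing in sensory neurons, by 981 bases, and exons of MSC, a helix-loop-helix repressor. This row, which holds the ratio of 4.171, is counted here for MSC and not among the channels below. MSC-AS1 had 30.02, 36.9, 36.9 and 25.2 CPM with CPA and synta-66, 95.2, 76.03, 91.5 and 76.8 CPM with CPA and 16.2, 22.2, 21.9 and 21.1 CPM untreated. The groups did not overlap, and the synta-66 libraries lay between CPA and untreated. OVOL1, a zinc-finger factor of epithelial differentiation, lay opposite ENSG00000255404 by 1039 bases. ENSG00000255404 had 21.1, 37.8, 28.01 and 25.2 CPM in the synta-66 libraries, 87.2, 98.1, 112 and 108 CPM in the CPA libraries and 36.02, 47.2, 39.4 and 31.6 CPM in the untreated ones. CPA stood far above the rest, where synta-66 replicate 2 overlapped with untreated libraries. DDX20, a helicase of the SMN complex, lay opposite INKA2 by an overlap of 93 bases. INKA2 had 5.27, 8.11, 6.39 and 10.01 CPM with CPA and synta-66, 37.9, 29.8, 28.04 and 26.98 CPM with CPA and 14.6, 13.6, 9.69 and 7.03 CPM untreated. The synta-66 and untreated libraries overlapped, below all CPA libraries.

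The coactivator of β-catenin BCL9L lay opposite CXCR5 by 3913 bases. CXCR5 had 87.2, 71.4, 86.5 and 89.6 CPM in the synta-66 libraries, 138, 263, 163 and 118 CPM in the CPA libraries and 113, 103, 134 and 104 CPM in the untreated ones. CPA replicate 2 was far above the other CPA libraries, and CPA replicate 4 lay below untreated replicate 3. CEBPA, a factor of epithelial and myeloid differentiation, lay opposite a pair of rows that both met the limits, ENSG00000267580 with 14.9, 43.3 and 23.1 CPM and ENSG00000267727 with 8.70, 17.3 and 7.73 CPM, as means with CPA and synta-66, with CPA and untreated. CPEB2, a regulator of translation, lay opposite C1QTNF7-AS1. C1QTNF7-AS1 had 8.52, 13.3, 14.2 and 10.4 CPM with CPA and synta-66, 21.4, 39.8, 26.4 and 25.9 CPM with CPA and 7.08, 5.40, 8.75 and 7.91 CPM untreated. All CPA libraries lay above the rest, and 3 of 4 synta-66 libraries lay above every untreated one.

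Other rows of this group lay opposite developmental factors and cofactors, namely ENSG00000266283 (GATA6), ENSG00000272078 (CASZ1), WWTR1-AS1 (WWTR1, the Hippo cofactor TAZ), ENSG00000229047 (NRIP1, a nuclear receptor corepressor), TSC22D1-AS1 (TSC22D1), SMG6 (HIC1, a repressor), ACP2 (NR1H3, the oxysterol receptor LXR alpha), ENSG00000279592 (ZNF821) and ENSG00000268912 (ZNF584). Chromatin, elongation and RNA proteins lay opposite HEXIM2-AS1 (HEXIM2 and HEXIM1, inhibitors of P-TEFb), ENSG00000259211 (BAHD1), CISD3 (PCGF2, of Polycomb), PDIA3 (ELL3), STAT6 (NAB2, a corepressor of EGR factors, and LRP1), RBM38-AS1 (RBM38) and NID2 (RTRAF). Across all 23 rows the median ratio of CPA with synta-66 to untreated was 0.9449.

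Kinases, phosphatases and other signalling genes lay opposite 21 rows, with ratios of CPA to untreated between 1.522 and 3.107. MAPK8IP1, the scaffold JIP1 of JNK signalling, lay opposite ENSG00000255498 (overlap 409 bases). ENSG00000255498 had 21.9, 16.2, 11.6 and 15.2 CPM in the synta-66 libraries, 48.5, 40.9, 55.9 and 49 CPM in the CPA libraries and 21.4, 12.8, 16.9 and 11.4 CPM in the untreated ones. CPA libraries were separate and the other groups overlapped. TNFAIP3, the ubiquitin-editing inhibitor A20 of NF-kB, lay opposite WAKMAR2 by 95 bases. WAKMAR2 had 49.1, 41.5, 60.9 and 37.9 CPM with CPA and synta-66, 109.7, 112, 118 and 115 CPM with CPA and 59.8, 52.8, 69.1 and 67.7 CPM untreated. Here too the CPA libraries did not overlap with the rest, while untreated and synta-66 libraries did with each other. PPP3CC, a catalytic subunit of calcineurin, lay opposite ENSG00000251034, at 16.2 ± 2.07 CPM with CPA and synta-66, 30.1 ± 4.45 CPM with CPA and 16.1 ± 3.26 CPM untreated (SD, n = 4 each).

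Kinases also lay opposite PCBP2 (MAP3K12), CD72 (TESK1), DYNLT4 (PLK3) and DYRK3-AS1 (DYRK3), and phosphatases opposite SLC35E4 (DUSP18) and opposite MARVELD3 and ENSG00000260185, which both lie opposite PHLPP2, a phosphatase of AKT. The other rows were ENSG00000262884 (RAP1GAP2, a GTPase activator), ENSG00000267801 (TRIM47), PDZD7 (LZTS2), MGAT4B (SQSTM1, the autophagy receptor p62), CDHR2 (GPRIN1), ENSG00000227218 (EEIG1), CDC14B (HABP4), TBL3 (NOXO1, an organiser of NADPH oxidase), B9D1 (EPN2, an epsin of endocytosis, and the kinase MAPK7), MATCAP1 (NOL3, an inhibitor of apoptosis) and PERM1 (PLEKHN1).

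Channels, transporters and organelle membrane proteins lay opposite 12 rows, with ratios of CPA to untreated between 1.502 and 3.36. LRRC8E, a subunit of the volume-regulated anion channel, lay opposite ENSG00000214248 by 3218 bases. ENSG00000214248 had 284, 295, 273 and 264 CPM in the synta-66 libraries, 469.9, 468, 524 and 523 CPM in the CPA libraries and 309, 308, 297 and 318 CPM in the untreated ones. CPA libraries were separate from the rest, and synta-66 libraries lay below the untreated ones. The row with the highest ratio of CPA to untreated in this group was ENSG00000264272 (TTYH2, an anion channel family member), with means of 13.2 CPM with CPA and synta-66, 32.4 CPM with CPA and 9.65 CPM untreated. ATP1B1, the beta subunit of the sodium pump, lay opposite NME7 with means of 214 CPM with CPA and synta-66, 321.5 CPM with CPA and 201 CPM untreated. The others were ENSG00000258504 (SLC25A29, a mitochondrial carrier), SLC13A4 (STMP1), TEKTIP1 and ENSG00000267436 (both MFSD12, a lysosomal and melanosomal protein), ASPHD2 (HPS4), PUS10 (PEX13, of peroxisomes), CTNS-AS1 (CTNS, the lysosomal cystine transporter), LRRC8C-DT (LRRC8B, of the same channel family as LRRC8E) and SAV1 (ATL1, an endoplasmic reticulum fusion GTPase).

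Metabolic enzymes lay opposite 8 rows and 6 rows lay opposite coding genes of other kinds. ALDH1A3, which makes retinoic acid, lay opposite ALDH1A3-AS1 (chromosome 15, 100892343 to 100919391, overlap 1715 bases), which also overlaps LRRK1. ALDH1A3-AS1 had 502, 651, 621 and 547 CPM with CPA and synta-66, 2334, 2192, 2283 and 2509 CPM with CPA and 1332, 1519, 1479 and 1410 CPM untreated. All 3 groups were separate, with the synta-66 libraries lowest. Other enzyme rows were CGREF1 (KHK, fructokinase), ENSG00000280416 (CES2, a carboxylesterase), MCF2L2 (B3GNT5, of lactoseries glycolipids), ENSG00000259661 (MAN2A2, of N-glycan trimming) and COX15 (ENTPD7). Those with a coding gene of another kind opposite included TRAF3IP3 (C1orf74), THAP11 (CENPT, of kinetochores), SNHG16 (ENSG00000284526) and CSTF3 (TCP11L1). TRAF3IP3 had the highest level of these 6, with means of 126 CPM with CPA and synta-66, 311 CPM with CPA and 124 CPM untreated.

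No coding exon was found opposite the other 45 rows. Of the 15 rows with the largest differences in both directions, 8 were of this kind, and ENPP7P4, a pseudogene on chromosome 3, came second. ENPP7P4 had 4.06, 4.96, 1.97 and 6.09 CPM in the synta-66 libraries, 20.1, 16.7, 24.97 and 23.96 CPM in the CPA libraries and 2.29, 8.60, 5.94 and 6.74 CPM in the untreated ones. LSAMP, an adhesion molecule of neurons, was higher in every CPA library and highest in replicate 2. LSAMP had 50.3, 47.3, 53.1 and 57 CPM with CPA and synta-66, 103, 245, 118 and 91.5 CPM with CPA and 55.6, 46.4, 52.8 and 33.7 CPM untreated. RPE65, the retinoid isomerase of the eye, and DEPDC1, a gene of mitosis, are neighbours on the minus strand of chromosome 1 (68428822 to 68449954 and 68474152 to 68497221). RPE65 had 7.71, 12.6, 12.04 and 15.2 CPM in the synta-66 libraries, 34.3, 80.5, 31.1 and 37.3 CPM in the CPA libraries and 20.4, 18.8, 16.6 and 14.9 CPM in the untreated ones. DEPDC1 had 12.98, 5.86, 12.04 and 19.6 CPM with CPA and synta-66, 24.3, 63.01, 31.5 and 31.7 CPM with CPA and 11.7, 11.6, 16.6 and 13.2 CPM untreated. In both, as in LSAMP and MYO16, CPA replicate 2 was the highest library and the other CPA libraries still lay above both other groups.

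MYO16, an unconventional myosin, had no coding gene on the other strand within 10000 bases. MYO16 had 11.4, 13.7, 9.83 and 3.48 CPM in the synta-66 libraries, 35.9, 56.96, 27.01 and 30.9 CPM in the CPA libraries and 13.5, 15.2, 14.4 and 7.03 CPM in the untreated ones. PAX8, a developmental factor of the thyroid and kidney, lay 6601 bases from PSD4. PAX8 had 3.65, 7.43, 3.93 and 4.35 CPM with CPA and synta-66, 24, 28.6, 21.9 and 17.1 CPM with CPA and 7.70, 6.40, 7.19 and 5.57 CPM untreated. ENSG00000280966, which GENCODE 44 does not annotate, had the highest ratio of CPA to untreated. ENSG00000280966 had 12.2, 13.5, 9.58 and 13.9 CPM in the synta-66 libraries, 27.9, 33.5, 35.4 and 46.8 CPM in the CPA libraries and 6.25, 11, 5.94 and 10.8 CPM in the untreated ones. In each of these the CPA libraries were separate, and the other groups overlapped. Another row without annotation, ENSG00000279576, took the most reads of the 142. ENSG00000279576 had 9098, 8249, 7288 and 8101 CPM with CPA and synta-66, 11360, 15760, 11790 and 11440 CPM with CPA and 8001, 7390, 8399 and 6794 CPM untreated. CPA replicate 2 was far above the other CPA libraries there, which still lay above both other groups.

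**Figure D2:**
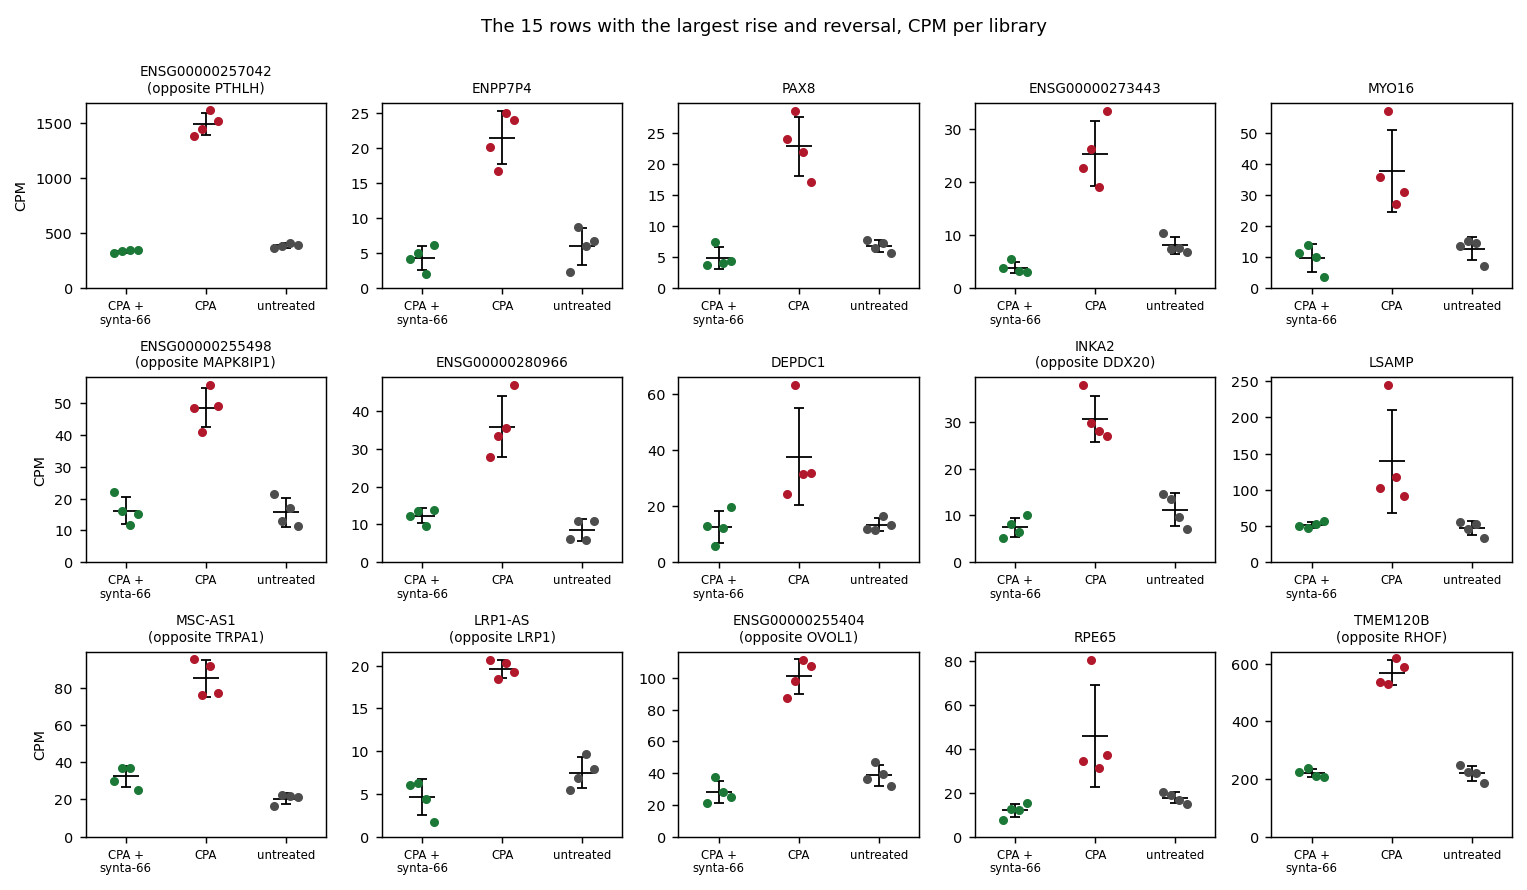
CPM of each library (points) with the group mean and SD (bars) for the 15 rows with the largest differences in both directions, from CPA with synta-66 on the left through CPA to untreated on the right. In all 15 the CPA libraries lie above both other groups, and in LSAMP, RPE65, DEPDC1 and MYO16 CPA replicate 2 is the highest point (244.6, 80.4, 63.0 and 57.0 CPM).

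The other rows with a coding gene on the other strand nearby were FUT2, ENSG00000217801, ODF3B, EMILIN1, SERPINA10, ZC3H12A, RNF141, NONOP2, PIP5K1C, TSEN54, CAMK1G, PRRT1, MMP25, RUSC1, CHKA, SPAG4 and ENSG00000273443. Those opposite a gene body only were GLIPR1-AS1 (GLIPR1), DYNLL1 (SRSF9), ENSG00000272509 (CCNE2), PIGCP1 (TCP11L1) and ANKRD13B (CORO6 and GIT1). Those with no such gene within the distance were RNF213, HLA-F, ECE2, TTC28, SYT5, ENSG00000230021, CCNL1, ENSG00000276015, ENSG00000263680, DUX4L50 and NOTCH4. ENSG00000281194, ENSG00000265263 and ENSG00000224911 completed the rows without annotation. ENSG00000281194 had 742 ± 23.3 CPM with CPA and synta-66, 1698 ± 92.8 CPM with CPA and 777 ± 20.6 CPM untreated (SD, n = 4 each). Counts of HLA-F and of the pseudogenes ENPP7P4, NONOP2, PIGCP1 and DUX4L50 are uncertain because reads can divide among near-identical copies.

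A comparison that the limits did not fix is CPA with synta-66 against untreated, which asks how near to untreated the rows lay when synta-66 was present. The same libraries entered the limits, so it is not an independent set of samples. With synta-66, 92 rows (64.79%) lay within 1.25-fold of untreated, beside 72.31% of the 4533 rows, and 17 lay above and 33 below that band. The ratio ran from 0.3915 to 1.756 with a median of 0.9662. By edgeR's quasi-likelihood test, adjusted over all 14911 rows, 12 of 142 (8.451%) were called at adjusted p under 0.05 and 1.5-fold, 9 lower (1.24% of all rows) and 3 higher (1.66%), where 433 rows (2.9%) were called in either direction. Of the 14911 rows only 4533 reached 10 CPM, as all 142 did, so these shares are of rows at unlike levels. The share called among the 4533 was not counted. The median log2 fold change was −0.05 over the 142 rows, 0.02 over the 4533 rows and −0.06 over all rows tested. At an unadjusted p under 0.05 there were 35. Without the 3 libraries that stood apart, 10 were called.

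**Figure D3:**
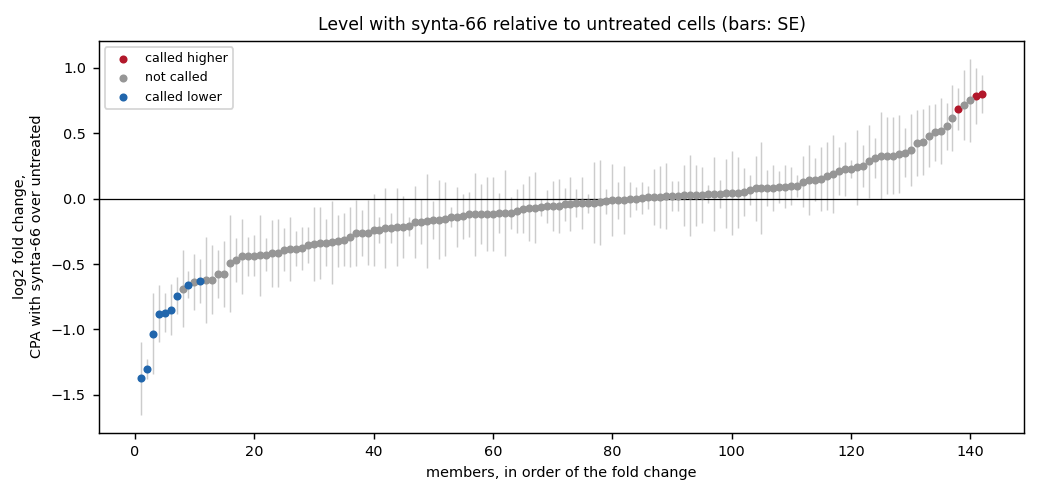
Log2 fold change of CPA with synta-66 over untreated for the 142 rows in order of size (points), with SE (bars), from edgeR's fit. The 9 rows called lower reach −1.38 for ANKRD13B and the 3 called higher reach 0.80 for COX15, while most rows sit near 0.

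ALDH1A3-AS1 had the clearest difference, at −1.30 ± 0.07 (SE, adjusted p = 1.8e-17). All 4 synta-66 libraries lay below every untreated one. TSC22D1, a leucine zipper protein induced by TGF-beta, lay opposite TSC22D1-AS1. TSC22D1-AS1 had 29.6, 23.6, 21.1 and 26.5 CPM in the synta-66 libraries, 74.3, 79.5, 75.3 and 78.1 CPM in the CPA libraries and 44.1, 42.6, 40.3 and 55.96 CPM in the untreated ones. Each group was separate, and synta-66 differed from untreated by −0.87 ± 0.15 (SE, adjusted p = 6.08e-05). TRIM47, a RING-type ubiquitin ligase, lay opposite ENSG00000267801 by 1624 bases. ENSG00000267801 had 88.4, 97.99, 103 and 90.5 CPM with CPA and synta-66, 253, 258, 278 and 274 CPM with CPA and 144, 144, 129 and 184 CPM untreated. The groups were again separate and the difference from untreated was −0.66 ± 0.10 (SE, adjusted p = 1.27e-05), which fell short of 1.5-fold without untreated replicate 4 (−0.55).

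SYNC, the intermediate filament protein syncoilin, lay opposite RBBP4 by 2160 bases. RBBP4 had 31.2, 29.5, 53.1 and 34.8 CPM in the synta-66 libraries, 144, 116, 142 and 156 CPM in the CPA libraries and 70.99, 65.01, 57.2 and 56.5 CPM in the untreated ones. Every synta-66 library lay below every untreated one, and the log2 fold change was −0.74 ± 0.14 (SE, adjusted p = 0.000546). ANKRD13B, a ubiquitin-binding protein of receptor endocytosis, had low counts. ANKRD13B had 7.71, 7.43, 2.95 and 8.27 CPM with CPA and synta-66, 29.2, 29.5, 31.5 and 26.3 CPM with CPA and 10.6, 16.2, 24.7 and 15.8 CPM untreated. The synta-66 libraries lay below the untreated ones, with −1.38 ± 0.28 (SE, adjusted p = 0.000914). SPAG4, a protein of the nuclear envelope, lay 4937 bases from CPNE1. SPAG4 had 10.6, 16.7, 16.5 and 20.01 CPM in the synta-66 libraries, 45.7, 42.5, 44 and 44.5 CPM in the CPA libraries and 29.6, 27.2, 19.7 and 38.7 CPM in the untreated ones. One synta-66 library was above the lowest untreated one, and the log2 fold change was −0.85 ± 0.20 (SE, adjusted p = 0.00453).

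VCL, vinculin of focal adhesions, lay opposite AP3M1 by 1109 bases. AP3M1 had 10.6, 10.6, 11.6 and 14.8 CPM with CPA and synta-66, 29.2, 40.9, 34.4 and 28.1 CPM with CPA and 18.5, 28.8, 15.6 and 23.1 CPM untreated. CPA replicate 4 overlapped with untreated libraries. The difference from untreated was −0.88 ± 0.22 (SE, adjusted p = 0.0108), and it did not pass without untreated replicate 2 (−0.70, adjusted p = 0.105) or CPA with synta-66 replicate 2 (−0.82, adjusted p = 0.0501). The row did not meet the limits without the 3 libraries that stood apart, and neither did SPAG4. LZTS2, a leucine zipper protein, lay opposite PDZD7 by 158 bases. PDZD7 had 23.9, 25, 22.6 and 33.5 CPM in the synta-66 libraries, 72.3, 67.9, 71.02 and 64.97 CPM in the CPA libraries and 51, 39.4, 43.4 and 26.4 CPM in the untreated ones. The synta-66 and untreated libraries overlapped. The log2 fold change was −0.63 ± 0.17 (SE, adjusted p = 0.0174), and the edgeR call ended without untreated replicate 1 (−0.49, adjusted p = 0.148) or 3 (−0.59, 0.051) and without CPA with synta-66 replicate 1 (−0.60, 0.0563), 2 (−0.605, 0.0626) or 3 (−0.56, 0.093). ENSG00000273443, a noncoding RNA that lies 6090 bases from AGRN, had the lowest ratio of CPA with synta-66 to CPA of the 142 (0.1508). ENSG00000273443 had 3.65, 5.41, 3.19 and 3.05 CPM with CPA and synta-66, 22.7, 26.3, 19.03 and 33.5 CPM with CPA and 10.4, 7.40, 7.501 and 6.74 CPM untreated. Its log2 fold change of −1.03 ± 0.31 (SE, adjusted p = 0.0459) passed with untreated replicate 4 or CPA with synta-66 replicate 2 left out, and did not pass with any of the other 10 libraries left out (edgeR adjusted p 0.0516 to 0.186) or without the 3 libraries that stood apart (0.222).

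LOX, the enzyme that cross-links collagen and elastin, lay opposite SRFBP1 by 138 bases, and that row was higher with synta-66 than untreated. SRFBP1 had 17.9, 14.9, 19.9 and 19.6 CPM in the synta-66 libraries, 28.1, 38.1, 30.7 and 31.3 CPM in the CPA libraries and 9.58, 10.4, 10.6 and 11.1 CPM in the untreated ones. The groups were separate, and the log2 fold change was 0.79 ± 0.21 (SE, adjusted p = 0.0215). This edgeR call ended without untreated replicate 1 (0.74, adjusted p = 0.072) or 2 (0.785, 0.0553), without CPA with synta-66 replicate 3 (0.73, 0.0791) or 4 (0.75, 0.0536), and without the 3 libraries that stood apart (0.72, 0.196). ENTPD7, a nucleotide-hydrolysing membrane enzyme, lay opposite COX15 by 374 bases. COX15 had 64.9, 59.02, 52.1 and 70.05 CPM with CPA and synta-66, 77.7, 114, 87.8 and 89.1 CPM with CPA and 32.5, 41, 39.7 and 26.9 CPM untreated. The groups were separate and the difference from untreated was 0.80 ± 0.14 (SE, adjusted p = 0.00017). For MSC-AS1, whose values are given above, it was 0.69 ± 0.16 (SE, adjusted p = 0.00503). The row opposite OVOL1 was not called (−0.44 ± 0.16 (SE, adjusted p = 0.124)), but was without CPA with synta-66 replicate 2 (−0.625, adjusted p = 0.0217).

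**Figure D4:**
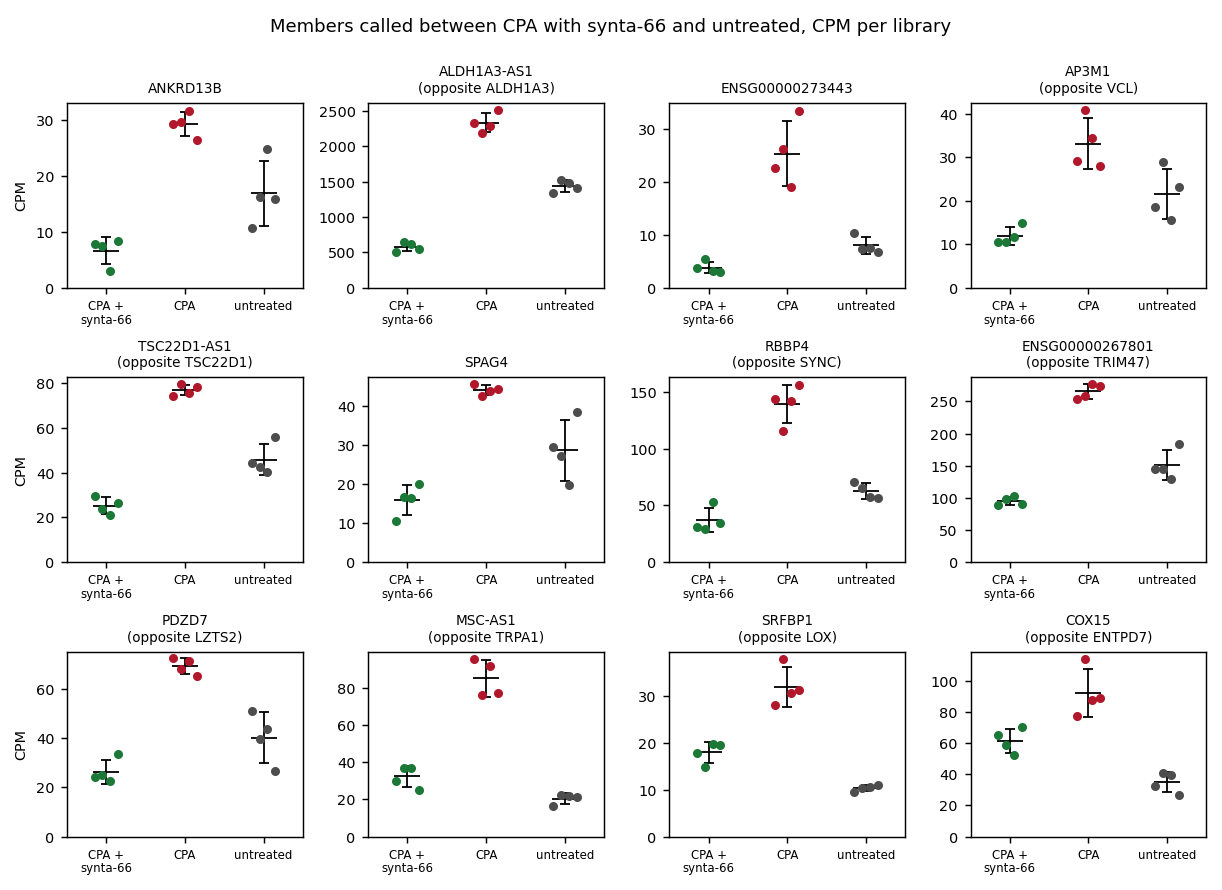
CPM of each library (points) with the group mean and SD (bars) for the 12 rows called between CPA with synta-66 and untreated, from CPA with synta-66 on the left through CPA to untreated on the right, in order of the fold change. The first 9 panels hold the rows called lower and the last 3 those called higher, MSC-AS1, SRFBP1 and COX15.

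A reading that the limits did not use is the own row of each coding gene opposite one of the 142. By the same reasoning an own row may hold transcripts of the row opposite it. Of these genes 82 had an own row that was tested, 20 were below the count filter and 1, PTHLH, was itself among the 142. With CPA, 66 of the 82 own rows had a lower mean than the row opposite and 16 a higher one. The median ratio of the opposite row to the own row was 6.65. Opposite a noncoding row, 31 of 32 own rows were lower (median ratio 22.92). The 142 rows had to reach 10 CPM and to be high with CPA, and the own rows did not. Where several of the 142 lay opposite a gene, the one with the highest CPA mean was used. The ratio was not computed for other rows, so it is not read as a trait of the 142. With synta-66 against CPA, 3 own rows were called lower (3.659%, beside 2.82% of all rows) and 1 higher (1.94% of all rows), and the median log2 fold change was −0.27, beside −0.04 over all rows. Between CPA and untreated, 1 was called higher (1.22%, beside 1.8% of all rows) and 0 lower (1.05% of all rows), with a median of 0.15, beside −0.01 over all rows. At an unadjusted edgeR p under 0.05, 15 were higher and 5 lower there, and DESeq2 called 3 higher and 0 lower. Between CPA with synta-66 and untreated 1 was called higher (beside 1.66% of all rows) and 2 lower (beside 1.24%), with a median of −0.06, the same as over all rows. Among the 32 own rows opposite a noncoding row the medians were −0.22 for synta-66 against CPA, 0.00 (−0.002) for CPA against untreated and −0.23 for synta-66 against untreated.

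The own row of TRPA1 (opposite MSC-AS1) was the one called higher with CPA. In its own row TRPA1 had 28.4, 28.8, 28.99 and 28.3 CPM in the synta-66 libraries, 39.2, 48.4, 35 and 38.9 CPM in the CPA libraries and 22.1, 16, 20.6 and 23.7 CPM in the untreated ones. The CPA libraries lay above both other groups, and edgeR gave 0.97 ± 0.17 (SE, adjusted p = 8.21e-05) for CPA against untreated. For synta-66 against CPA it gave −0.49 ± 0.17 (SE, adjusted p = 0.0621), which was not called. The own row of MSC was not called in any comparison, with 0.28 ± 0.24 (adjusted p = 0.667) for CPA against untreated. The call for TRPA1 held with each library left out in turn, at log2 fold changes between 0.861 and 1.045.

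ALDH1A3 was called lower with synta-66 than with CPA in its own row as well. In its own row ALDH1A3 had 18.7, 18.02, 23.8 and 13.1 CPM with CPA and synta-66, 28.1, 31.2, 29.7 and 36.3 CPM with CPA and 37.9, 39.8, 21.2 and 32.8 CPM untreated. The synta-66 libraries lay below all CPA libraries, and both groups overlapped with the untreated ones. The edgeR log2 fold change was −0.75 ± 0.20 (SE, adjusted p = 0.0111) against CPA, which did not pass without CPA replicate 4 (−0.67, adjusted p = 0.0508), CPA with synta-66 replicate 4 (−0.63, 0.057) or the 3 libraries that stood apart (−0.62, 0.0928). Against untreated it was −0.83 ± 0.20 (SE, adjusted p = 0.00637) and held with each library left out. Between CPA and untreated it was −0.08 ± 0.19 (SE, adjusted p = 0.903), not called.

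The own row of VIM was also called lower with synta-66 than with CPA. In its own row VIM had 27.2, 18.2, 28.5 and 34.8 CPM in the synta-66 libraries, 50.6, 41.1, 44.4 and 38.6 CPM in the CPA libraries and 31.4, 33.6, 24.1 and 35.5 CPM in the untreated ones. The synta-66 libraries of VIM lay below those of CPA, at −0.70 ± 0.17 (SE, adjusted p = 0.00636), and the edgeR call ended without CPA with synta-66 replicate 2 (−0.53, adjusted p = 0.064).

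LRRC8E went the other way in its own row. In its own row LRRC8E had 16.2, 22.5, 14.2 and 15.7 CPM with CPA and synta-66, 10.1, 5.81, 7.57 and 10.4 CPM with CPA and 9.37, 9.20, 17.2 and 13.2 CPM untreated. Synta-66 libraries lay above all CPA libraries, at 1.03 ± 0.28 (SE, adjusted p = 0.0124), which did not pass without CPA replicate 2 (0.89, adjusted p = 0.0595) or CPA with synta-66 replicate 2 (0.86, 0.0861). Its opposite row ENSG00000214248 was lower with synta-66 in every library. Against untreated, the own row of CTNS was called lower with synta-66 (−0.66 ± 0.16 (SE, adjusted p = 0.00708); −0.57, 0.0605 without untreated replicate 1). The own row of BBOF1 was called higher (0.59 ± 0.12 (SE, adjusted p = 0.00143)), and the difference was smaller than 1.5-fold without untreated replicate 3 or 4, any of CPA with synta-66 replicates 1 to 3, or the 3 libraries that stood apart (0.509 to 0.581).

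**Figure D5:**
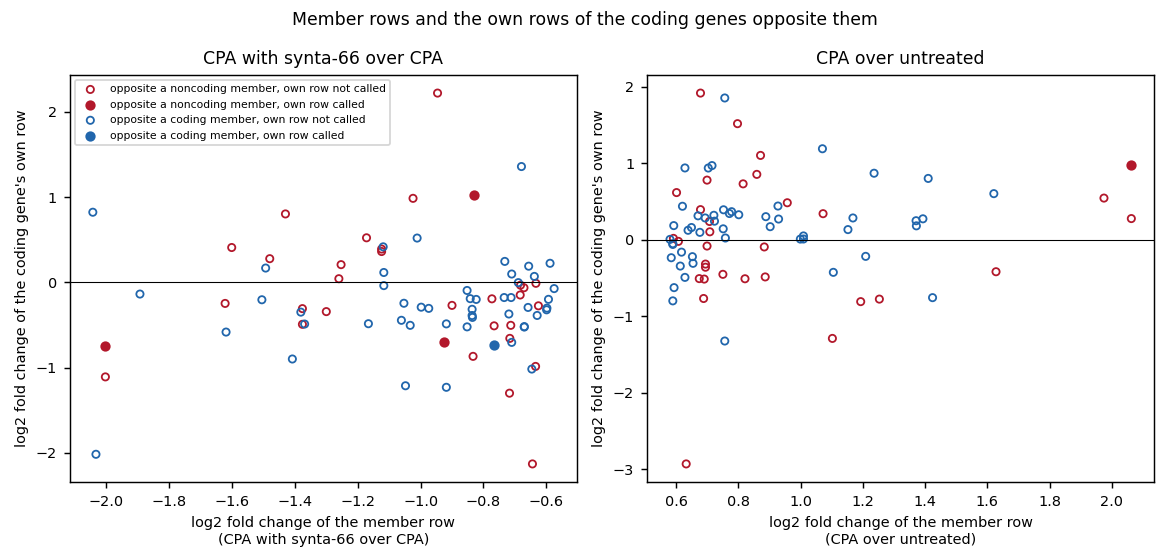
Log2 fold change of the own row of each coding gene (y axis) against that of the row opposite it among the 142 (x axis), with CPA with synta-66 over CPA on the left and CPA over untreated on the right, in edgeR's fit. The rows on the x axis were chosen to lie below 0 on the left and above 0 on the right, while the own rows spread to both sides of 0, with called ones filled (LRRC8E at 1.03 on the left, TRPA1 at 0.97 on the right).

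Promoters of the opposite genes were read from RefSeq sequences (GRCh38.p14) in a window of 250 bases before to 50 after the start, for 81 of the 103 genes. The AP-1 motif TGANTCA was in 3 (3.7%), beside 5.74% of 15345 coding promoters, and the CRE motif TGACGTCA in 1 (1.23%, beside 2.64%). The NFAT core GGAAA was in 40 (49.4%, beside 59.4%), the E-box CACGTG in 2 (2.47%, beside 8.89%) and the TATA box TATAAA in 3 (3.7%, beside 9.63%). Both strands were searched, and the motifs do not contain each other. Shown here are the 250 bases before the start of PTHLH, whose row ranked first, of ALDH1A3 and LRRC8E, whose own rows were called with synta-66, and of RGMB, with rows that were lower with synta-66 at both of its opposite features. Each runs from 5′ to 3′ on the gene's strand, with AP-1, CRE and NFAT core matches in capitals.
PTHLH: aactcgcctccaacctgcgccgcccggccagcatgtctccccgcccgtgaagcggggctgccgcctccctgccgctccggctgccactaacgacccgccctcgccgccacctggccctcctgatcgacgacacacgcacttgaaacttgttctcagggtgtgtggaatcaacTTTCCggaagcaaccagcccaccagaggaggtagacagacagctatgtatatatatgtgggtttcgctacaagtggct
ALDH1A3: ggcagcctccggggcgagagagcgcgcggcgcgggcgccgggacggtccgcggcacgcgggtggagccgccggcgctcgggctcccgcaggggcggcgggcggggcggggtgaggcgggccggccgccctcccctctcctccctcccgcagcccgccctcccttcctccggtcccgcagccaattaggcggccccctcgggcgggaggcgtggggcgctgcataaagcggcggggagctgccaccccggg
LRRC8E: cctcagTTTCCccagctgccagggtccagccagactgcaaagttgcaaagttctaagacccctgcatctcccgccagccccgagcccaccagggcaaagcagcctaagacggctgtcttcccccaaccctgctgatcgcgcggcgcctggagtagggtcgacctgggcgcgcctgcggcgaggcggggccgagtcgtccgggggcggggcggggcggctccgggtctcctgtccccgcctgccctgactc
RGMB: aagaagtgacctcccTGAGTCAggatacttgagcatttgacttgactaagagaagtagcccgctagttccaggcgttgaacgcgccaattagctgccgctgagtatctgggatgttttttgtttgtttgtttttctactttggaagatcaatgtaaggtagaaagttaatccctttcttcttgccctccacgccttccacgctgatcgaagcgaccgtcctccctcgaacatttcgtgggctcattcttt
The windows lie at chr12:27969977-27970226 (PTHLH, minus strand), chr15:100879581-100879830 (ALDH1A3, plus strand), chr19:7888260-7888509 (LRRC8E, plus strand), chr5:98768382-98768631 (RGMB, plus strand). PTHLH and LRRC8E each had 1 NFAT core match in the reverse orientation (TTTCC), RGMB had 1 AP-1 match and ALDH1A3 had no match in these 250 bases. With the 50 bases after the start, which the counts above include, LRRC8E also had 1 AP-1 match and PTHLH had 2 NFAT core matches in all. A match is a description of the letters and not of a bound site. The promoters shown are examples. The own row of VIM was called with synta-66 too, and its promoter is not shown. LRRC8E and RGMB are among the 3 genes with an AP-1 match, so such matches are over-represented in the examples.

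Of the genes of calcium signalling, few were called. Among 22 genes of store-operated entry and calcium handling, 17 own rows and 9 opposite rows were tested and none was called by edgeR in any of the 3 comparisons, beside 4.76%, 2.85% and 2.9% of all rows for synta-66 against CPA, CPA against untreated and synta-66 against untreated. DESeq2 called none either. Reads of the tested own rows over the 12 libraries ran from 18 (TRPC1) to 1345 (ITPR3). For synta-66 against CPA the SE of the log2 fold change was 1.586 for TRPC1, 0.763 for ORAI1 and 0.189 for ITPR3. The lowest rows could hardly have been called, so the lack of a call does not show a steady level. The same limit holds for low own rows of the lists below. At an unadjusted edgeR p under 0.05, own rows numbered 4, 0 and 4 in these comparisons and opposite rows 2, 6 and 1, the 6 being 5 higher with CPA and 1 lower. Among 16 genes of calcineurin and NFAT, 5 opposite rows were tested, of which ENSG00000251034, opposite PPP3CC, was called in the direction that chose it. Of 9 own rows 1, the anchoring protein AKAP5, was called lower in the synta-66 libraries than in the CPA ones (−0.87 ± 0.24, adjusted p = 0.0197) and than untreated (−1.19 ± 0.24, adjusted p = 0.00106, both edgeR). Of all rows 2.82% and 1.24% were called lower in these comparisons. Among 20 targets of SRF and MRTF, 9 opposite rows were tested. For synta-66 against CPA edgeR called 2 lower (beside 2.82% of all rows). They were ENSG00000232220, opposite MYADM and set aside above, and AP3M1, opposite VCL, whose lower level there is part of what chose it. For CPA against untreated ENSG00000232220 alone was called higher by edgeR (beside 1.8%), where DESeq2 called 2 higher. AP3M1 alone was called lower with synta-66 than untreated (beside 1.24%). None of 15 own rows of that list was called by edgeR in any comparison, where DESeq2 called 1 lower with synta-66 than with CPA, and 5, 2 and 1 had an unadjusted p under 0.05 in the same order of comparisons.

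Among 22 immediate early factors 5 opposite rows were tested. For synta-66 against CPA 3 were called lower (beside 2.82% of all rows) and none higher (beside 1.94%). They were NR4A1AS and IER3-AS1, set aside above and opposite NR4A1 and IER3, and HOOK2, which lies opposite JUNB, an AP-1 subunit, at −0.66 ± 0.11 (edgeR adjusted p = 2.39e-05). For CPA against untreated NR4A1AS and IER3-AS1 were called higher (beside 1.8% of all rows), and HOOK2 had 0.29 ± 0.10 (edgeR adjusted p = 0.117). The own row of JUNB had −0.83 ± 0.61 (edgeR adjusted p = 0.587), and that of NR4A1 held no reads. None of 14 own rows was called by edgeR or DESeq2, with 3, 2 and 1 at an unadjusted p under 0.05 in that order. These own rows were low, from 63 reads over the 12 libraries (NR4A2) to 469 (FOSL1). Among 13 CREB targets 6 opposite rows were tested, of which NR4A1AS and ENSG00000225057, opposite the clock gene PER2 (1.19 ± 0.32, edgeR adjusted p = 0.0221), were called higher with CPA (beside 1.8% of all rows). NR4A1AS alone was called lower with synta-66 than with CPA (beside 2.82%). None of 4 own rows was called by edgeR, with 1, 0 and 1 at an unadjusted p under 0.05, and DESeq2 called 1 lower with synta-66 than untreated. Reads of these 4 ran from 38 (BDNF) to 1213 (SIK2) over the 12 libraries. These counts are descriptions of lists chosen with earlier results of the data known.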

How the data were processed

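HTSeq read counts per gene for the 12 libraries were used as deposited. Per the labels' protocols, the authors trimmed paired-end reads (Trimmomatic, version 0.32 in the design text and 0.36 in the submitters' processing notes), aligned them with STAR 2.5.2a to GRCh38 and counted them with HTSeq 0.6.1p1 on Ensembl release 84 as a stranded library. The 5 closing rows of HTSeq name no gene and were left out of library sizes. Of uniquely aligned reads 90.53% to 96.34% were in no feature. Unique alignments outnumbered the trimmed reads that the labels give per library, and both mates of a read pair may each have been counted.

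A row was kept when 2 of the 4 libraries in any group had 5 or more reads of it (14911 rows). edgeR 4.0.16 (R 4.3.3) fitted all 12 libraries with TMM scaling and a quasi-likelihood test, and p-values were adjusted by Benjamini-Hochberg over all rows. A call needed adjusted p under 0.05 and 1.5-fold. The fit was tested on simulated counts. DESeq2 1.42.0, other scalings and filters, a fit by replicate number and leaving out each library were alternatives. Opposite genes came from GENCODE 44, with an exon overlap of at least 30 bases. Rows given per library were the 15 largest by the smaller of both log2 ratios, those called between CPA with synta-66 and untreated, those whose opposite gene was called in its own row, and examples from each group chosen after their values were seen. The members and gene lists were chosen with earlier results of these data known. A few rows and opposite genes are counted in the totals but are not reported here by name.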

Additional observations from a re-analysis of the deposited data

Results flagged for a closer look

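In 3 of 87 groups of 4 libraries examined, 1 library lay far from the others, where chance gives about 1 in 20. RPE65 had 80.4 CPM in CPA replicate 2, against 31.1 to 37.3 CPM in the other CPA libraries. ENSG00000279576 had 15760 CPM in CPA replicate 2, against 11360 to 11790 CPM in the other CPA libraries. ANKRD13B had 2.948 CPM in CPA with synta-66 replicate 3, against 7.434 to 8.267 CPM in the other libraries of that group.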

How the results depend on the processing

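The count of rows meeting the limits moved with the limits and the scaling, from 142 to 418 with no scaling factor, 239 at a mean of 5 CPM, 80 at 20 CPM and 34 at 2-fold limits, and to 174 without the 3 libraries that stood apart (an alternative chosen after seeing the data). With no fold minimum, 655 genes were called between CPA and untreated (425 with it) and 9 own rows between synta-66 and CPA (4 with it). Own rows called between CPA and untreated numbered 1, but 2 with no fold minimum, 3 with DESeq2, 3 with the replicate block and 2 without the 3 libraries. With 1 library left out in turn, own rows called numbered 1 to 2 for CPA against untreated, 1 to 4 for synta-66 against CPA (1 without CPA with synta-66 replicate 2 and 2 without CPA replicate 2) and 2 to 4 for synta-66 against untreated, and members called 9 to 13. Rows meeting the limits numbered 128 to 150, and genes called 357 to 441, 568 to 784 and 335 to 427 in the 3 comparisons (CPA against untreated, synta-66 against CPA, synta-66 against untreated). The cause of these moves was not tested. Of 12 pairs of libraries with the same replicate number 2 correlated over 0.1 (r from −0.131 to 0.21), so the numbers were not taken to pair the samples, and with the replicate block 12 members were called, 11 of them shared. No called value changed sign under these alternatives. Among values that were not called, the log2 fold change of synta-66 against untreated crossed 0 with 1 library left out for DEPDC1 (−0.385 to 0.161), ENSG00000255498 (−0.136 to 0.23), TMEM120B (−0.068 to 0.066) and 1 other row. How depth limits these rows was not compared.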
